A study of Mus musculus with 9 samples.

Results

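This account follows 10 genes of the NF-kB pathway, the transcription factor subunits Nfkb1, Nfkb2, Rel, Rela and Relb and the feedback inhibitors and cofactors Nfkbia, Nfkbid, Nfkbiz, Tnfaip3 and Bcl3, through 3 states of mouse CD4 T cells. They were chosen by symbol, as genes named alone by a probe set of the deposited table. Of the 10, 9 have such a probe set, out of 19937 genes in all, and Nfkb1 is not analysed here. RNA was measured on 9 Affymetrix microarrays, 3 for each of 3 groups. At day 29, naive CD4 T cells negative for CD44 were sorted from spleens of mice given a sham treatment. Acute Th2 cells, positive for CD69, were sorted from the lung at day 29 after ovalbumin-induced allergic airway inflammation, and chronic Th2 cells with the same markers from the lung at day 104. The mice that gave Th2 cells were sensitised to ovalbumin with aluminium hydroxide as adjuvant (10 µg and 1.5 mg per dose, 3 doses into the peritoneum). They then inhaled ovalbumin as a 1% aerosol, for 3 consecutive days in the acute and over 12 weeks in the chronic group. Further surface markers were part of both sorts. All cells were activated for 8 h with anti-CD3 and anti-CD28 after the sort, so that each level is one after activation, and no group of rested cells is analysed here. The labels do not state the mouse strain, the sex, or whether a replicate is 1 animal or a pool. The titles call the replicates biological, and each p measures the spread between these samples.

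NF-kB factors are dimers that resting cells keep in the cytoplasm, bound to inhibitors of the IkB family. A signal from the T cell receptor, through protein kinase C theta, turns on the IkB kinase, the inhibitor is degraded, and the dimer enters the nucleus. Among the genes it turns on are those of its own subunits and inhibitors, which makes the pathway a feedback loop, and in T cells it serves activation, survival and cytokine production.

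Most of the members whose promoters could be searched hold a match to the sequence that NF-kB itself reads. RefSeq windows on GRCm38.p6, from 250 bases before to 50 bases after a transcript start, were matched to 7 of the 10 genes: Nfkb2, Rel, Rela, Nfkbia, Nfkbid, Tnfaip3 and Bcl3. They were searched on both strands for the kB consensus, a 10-base motif of 3 G, a purine, 2 free bases, 2 pyrimidines and 2 C, and overlapping matches were joined. At least 1 match was found for 6 of the 7, all but Rela, where 9.55% of 27025 genes with a window have one (8.46% of 32851 windows). The genes were chosen for their role in the pathway, and the share is given as a description. The stretches below show one match for each of the 6 genes with the consensus in capitals, written 5′ to 3′ on the strand of the gene, since these are the letters that NF-kB dimers are known to bind.
Nfkb2 (chr19:46304689-46304717, plus strand, 39 to 29 bases before one of 3 starts): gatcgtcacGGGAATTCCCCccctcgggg
Rel (chr11:23771042-23771070, minus strand, 92 to 82 bases before the start): gtaagcagcGGGAAATCCCCccccctccc
Nfkbia (chr12:55492658-55492685, minus strand, 29 to 20 bases before the start): gactggcttGGAAATTCCCcgcgcctga
Nfkbid (chr7:30422171-30422198, plus strand, 226 to 217 bases before one of 3 starts): ccccgccctGGGACTTCCCagagcacca
Tnfaip3 (chr10:19015404-19015431, minus strand, 12 to 3 bases before one of 2 starts): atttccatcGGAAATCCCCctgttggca
Bcl3 (chr7:19822735-19822762, minus strand, bases 3 to 12 after the start): cggcggcagGGGAAGTCCCgctgcccgg
In Nfkb2 and Rel the capitals hold 2 overlapping matches. A match is a string of letters and not a measured site. Members with a match did not share 1 pattern of levels, as the values below show. Bcl3 was higher in Th2 cells on every array. Rel was lower on every Th2 array than on naive replicates 2 and 3, and higher than on naive replicate 1.

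Of the 9 measured genes, Bcl3 and Nfkbiz were called higher in lung Th2 than in naive cells at both stages. Both encode atypical IkB proteins that work in the nucleus. With all 9 arrays no member was called lower. Without naive replicate 1, Rel was called lower at both stages, Nfkbid lower in chronic Th2 cells, and Tnfaip3 higher at both stages. At that setting 6.05% of all genes were called higher and 6.11% lower in acute Th2 cells. In chronic Th2 cells it was 5.84% and 11.4%. Without naive replicate 3, Rel differed by 0.082 and 0.006 and was not called. In the 9 fits without 1 array Bcl3 kept both calls, while Nfkbiz kept its acute call in 4 and its chronic call in 3. Bcl3 was 2.07-fold higher in acute and 2.26-fold higher in chronic Th2 cells, and Nfkbiz 1.90-fold and 1.71-fold higher. The subunit genes Nfkb2, Rel, Rela and Relb did not pass the test in any comparison on all 9 arrays, and no member passed between acute and chronic Th2 cells. Levels are log2 intensities, so that a difference of 1 is a doubling of signal. An adjusted p under 0.05 in limma, a linear model fitted to every gene, counts as a call. The 2 genes called higher of 9 stand beside 3.67% of all genes called higher in acute and 3.68% in chronic Th2 cells. The 0 members called lower stand beside 2.2% and 4.2%, and in either direction 5.87% and 7.88% of all genes were called. Naive arrays did not overlap with acute Th2 arrays for 3 members (Nfkbia, Nfkbiz and Bcl3) and with chronic Th2 arrays for 2 (Nfkbiz and Bcl3), against 19.7% and 27.9% of all genes in either direction. Both comparisons share the naive arrays. The median difference of the 9 was 0.30 in acute and 0.29 in chronic Th2 cells, against -0.03 and 0.04 over all genes.

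**Figure D1:**
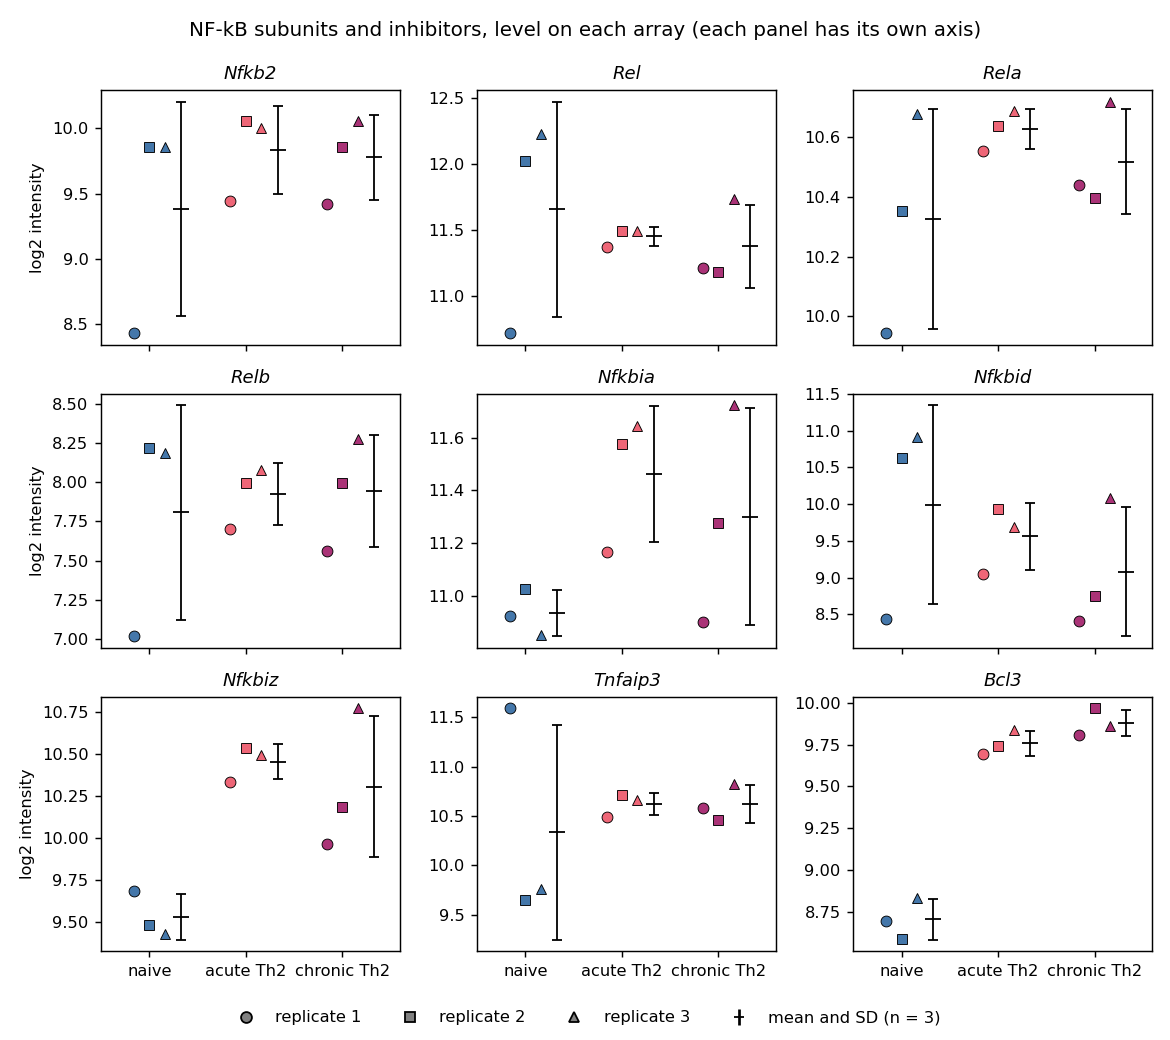
Level of each NF-kB member (log2 intensity, vertical axis, 1 scale per panel) on the 3 arrays of each group, with the shape giving the replicate and the bar the mean and SD (n = 3). Bcl3 lies between 8.59 and 8.83 on naive arrays and between 9.69 and 9.97 on Th2 arrays, while Nfkb2, Rel, Relb and Nfkbid have their lowest naive value on replicate 1 and Tnfaip3 has its highest there.

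1 array has to be described before the members. Over all genes, naive replicate 1 correlated at 0.94 with each of naive replicates 2 and 3, which correlated at 0.99 with each other. Its summed level was 14.09 for a list of T cell genes, against 13.36 and 13.53 on naive replicates 2 and 3. For a list of naive T cell genes it was 13.63, against 12.79 and 12.83. On naive replicate 1, all 8 genes of a stimulation list (Il2, Cd69, Nr4a1, Egr1, Egr2, Egr3, Myc and Tnf) were lower than on naive replicates 2 and 3. The summed intensity of the list was 12.61 on it on the log2 scale, against 14.52 and 14.71 on the other naive arrays, a range of 13.65 to 13.97 in acute and of 13.24 to 13.99 in chronic Th2 cells. Il2, at 5.07, was below the background level of 6.53 there, the 95th percentile of 1015 olfactory receptor genes, and the other 7 were above it. In the chronic group, 7 of the 8 genes were highest on replicate 3, Myc being the exception. The part of this difference between arrays in the results below was not tested, and the members' differences from naive cells are given with and without these arrays where they move by over 1.5 times. All 9 members were above the background level on all 9 arrays. The T cell list had all of its 8 measured genes above it on every array, with a summed level of 13.36 to 14.09 in naive, 13.65 to 13.67 in acute and 13.46 to 13.62 in chronic Th2 cells. The Th2 lineage gene Gata3 lay between 8.25 and 9.63 on naive and between 11.68 and 12.02 on Th2 arrays. Lists of other cell types that use NF-kB genes had few genes above background. Of 7 B cell genes, 0 or 1 was above it on each array: Cd79b ran from 6.52 to 7.08, while the defining genes Cd79a (4.83 to 5.82) and Ms4a1 (4.52 to 5.33) stayed below. The summed level of the B cell list was 8.61 to 8.82 in naive, 8.56 to 8.71 in acute and 8.74 to 8.88 in chronic Th2 cells. Of 8 macrophage and monocyte genes 1 was above background on each array, Cd68 at 7.96 to 8.35, while Lyz2 ran from 4.76 to 5.35, and the list's summed level was 9.30 to 9.41, 9.17 to 9.28 and 9.30 to 9.37. H2-Ab1 of the dendritic cell list ran from 6.17 to 6.76 and Siglecf of the eosinophil list from 6.82 to 7.26, around and above background. Of 11 lung epithelium and stroma genes, 3 or 4 were above it on each array. Pecam1 ran from 7.08 to 9.56, Col1a1 from 7.44 to 7.76 and Col3a1 from 6.80 to 6.99, while Epcam (5.54 to 6.36) stayed below. Of the CD8 T cell genes, Cd8b1 (6.60 to 7.89) was above background and Cd8a (5.97 to 6.38) below. A regulatory T cell list moved with the groups: 4 of its 5 genes were called higher in each Th2 group. Foxp3, its defining gene, lay between 8.96 and 9.26 on naive, 10.10 and 10.72 on acute and 10.08 and 10.29 on chronic Th2 arrays. The summed level of the list was 10.70 to 12.66 in naive, 14.32 to 14.47 in acute and 14.51 to 14.62 in chronic Th2 cells. In acute Th2 cells its brightest genes were Il2ra, Ctla4 and Il10, with means of 13.17, 12.50 and 12.08. Foxp3 had a mean of 10.49 there and Ikzf2 one of 8.81, so that the sum is not a measure of these 2 genes. The part of the list in the results was not tested.

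Rel encodes c-Rel, the subunit best known from activated lymphocytes. Its level was 10.72, 12.02 and 12.23 on naive replicates 1, 2 and 3, 11.37, 11.49 and 11.50 on the acute Th2 arrays, and 11.21, 11.18 and 11.74 on the chronic Th2 arrays. All 6 Th2 arrays thus lay above naive replicate 1 and below naive replicates 2 and 3. On all arrays the difference was -0.20 (SE 0.35, adjusted p = 0.881) in acute and -0.28 (SE 0.35, adjusted p = 0.629) in chronic Th2 cells. With naive replicate 1 left out Rel was called lower, by -0.67 (SE 0.17, adjusted p = 0.0303) and -0.75 (SE 0.17, adjusted p = 0.0152). In bulk samples, less RNA per cell and fewer cells that hold it cannot be told apart, here and in all comparisons that follow.

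Rela encodes p65, the subunit that carries the main activating domain of the common dimer. It had levels of 9.94, 10.35 and 10.68 on naive arrays, 10.55, 10.64 and 10.69 on acute Th2 arrays and 10.44, 10.40 and 10.72 on chronic Th2 arrays. The groups overlapped, the acute group being the tightest (SD 0.07, against 0.37 in naive and 0.18 in chronic Th2 cells, n = 3 each). The difference from naive cells was 0.30 (95% interval -0.10 to 0.70) in acute and 0.19 (-0.21 to 0.59) in chronic Th2 cells, and without naive replicate 1 it was 0.11 and 0.00.

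Nfkb2 and Relb belong to the alternative pathway, in which the NF-kB inducing kinase leads to processing of the Nfkb2 product, the partner of RelB. Nfkb2 had levels of 8.44, 9.86 and 9.86 on naive arrays, 9.45, 10.06 and 10.00 on acute Th2 arrays and 9.42, 9.86 and 10.06 on chronic Th2 arrays. Relb had levels of 7.02, 8.22 and 8.18 on naive, 7.70, 8.00 and 8.08 on acute and 7.56, 8.00 and 8.27 on chronic Th2 arrays. Of all pairs of members, these genes had the most similar profile, with a root mean square difference of 0.18 over the 9 arrays after each gene was centred on its own mean. Replicate 1 was the lowest array of each group for both genes, and naive replicate 1 the lowest of all. Nfkb2 differed from naive cells by 0.45 (SE 0.38, adjusted p = 0.677) in acute and 0.40 (SE 0.38, adjusted p = 0.518) in chronic Th2 cells. For Relb the values were 0.12 (SE 0.32, adjusted p = 0.929) and 0.14 (SE 0.32, adjusted p = 0.802). After leaving out that array, all of these differences turned negative, to -0.02 and -0.08 for Nfkb2 and -0.28 and -0.26 for Relb, none of them called.

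Nfkbia encodes IkB alpha, the classical inhibitor that holds the dimer in the cytoplasm and is made anew after each activation. Its level was 10.92, 11.03 and 10.85 on naive arrays, 11.17, 11.58 and 11.64 on acute Th2 arrays and 10.90, 11.28 and 11.72 on chronic Th2 arrays. Acute Th2 arrays did not overlap with naive arrays, as was the case, in the same direction, for 8.8% of all genes, but the difference of 0.53 (SE 0.20, unadjusted p = 0.0307) had an adjusted p of 0.232 in limma. Chronic Th2 cells overlapped with naive cells and differed by 0.37 (SE 0.20, adjusted p = 0.285). Nfkbia varied little between the naive arrays (SD 0.09, n = 3), and leaving out naive replicate 1 left differences of 0.52 and 0.36. Leaving out chronic Th2 replicate 3, where it was highest, lowered the chronic difference to 0.15 (adjusted p = 0.578).

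Bcl3 encodes a nuclear IkB protein that binds dimers of the NF-kB proteins that lack an activating domain of their own. Its level was 8.70, 8.59 and 8.83 on naive arrays, 9.69, 9.74 and 9.84 on acute Th2 arrays and 9.81, 9.97 and 9.86 on chronic Th2 arrays. Naive and Th2 arrays were far apart and the 3 arrays of each group close together (SD 0.12, 0.07 and 0.08, n = 3 each). The rise was 1.05 (SE 0.09, adjusted p = 0.000227) in acute and 1.17 (SE 0.09, adjusted p = 0.00012) in chronic Th2 cells in limma. In each of the 9 fits without 1 array Bcl3 was called in both comparisons, with rises of 0.99 to 1.12 and 1.11 to 1.24 and an adjusted p of at most 0.00232. Bcl3 was the 1 member whose group means spanned over 1 log2 unit. The 3 genes with the most similar profile over the 9 arrays, of all genes measured, were Nedd4, a ubiquitin ligase gene, Naip2, a gene of the inflammasome receptors, and Csf1, the macrophage growth factor gene, with root mean square differences of 0.09, 0.09 and 0.10 from Bcl3. The naive means of Nedd4 (6.21) and Naip2 (5.75) were below background, so that their levels there are upper bounds and their likeness to Bcl3 is one of signal. Csf1 had mean levels of 6.68 in naive, 7.68 in acute and 8.01 in chronic Th2 cells.

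Nfkbiz encodes IkB zeta, another nuclear IkB protein, which helps NF-kB dimers turn on a second wave of genes. It had levels of 9.69, 9.48 and 9.43 on naive arrays, 10.34, 10.54 and 10.50 on acute Th2 arrays and 9.96, 10.18 and 10.77 on chronic Th2 arrays. No Th2 array reached down to the naive range, and chronic Th2 arrays spread more widely than acute ones (SD 0.42 against 0.11, n = 3 each). The rise was 0.92 (SE 0.19, adjusted p = 0.024) in acute and 0.77 (SE 0.19, adjusted p = 0.0428) in chronic Th2 cells. These calls were close to the threshold. The acute call was lost without any one of naive 2, naive 3 or the 3 acute Th2 arrays (adjusted p up to 0.103), and the chronic call without any one of naive 2, naive 3, the 3 acute Th2 arrays or chronic Th2 2 (adjusted p up to 0.113). Both passed without naive replicate 1, at 1.00 (adjusted p = 0.0127) and 0.85 (adjusted p = 0.0213), and without chronic Th2 replicate 3 the chronic difference was 0.54 (adjusted p = 0.0346).

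Nfkbid encodes IkB-NS, the nuclear IkB protein induced by the T cell receptor, known for its part in the expression of Foxp3 and of cytokine genes. It had the widest spread of all members: 8.44, 10.63 and 10.91 on naive arrays, 9.05, 9.94 and 9.69 on acute Th2 arrays and 8.41, 8.75 and 10.08 on chronic Th2 arrays. Naive replicate 1 and chronic Th2 replicates 1 and 2 were low, and naive replicates 2 and 3 were above all 6 Th2 arrays. With all arrays, the difference from naive cells was -0.43 (SE 0.66, adjusted p = 0.861) in acute and -0.91 (SE 0.66, adjusted p = 0.398) in chronic Th2 cells. With naive replicate 1 left out it was -1.21 (SE 0.44, adjusted p = 0.134) and -1.69 (SE 0.44, adjusted p = 0.0315), so that Nfkbid was called lower in chronic Th2 cells. That array was set apart by its low stimulation genes, and Nfkbid was low on it too. The fit without it is thus no separate test of Nfkbid.

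Tnfaip3 encodes a ubiquitin-editing enzyme that shuts off signalling to the IkB kinase. Its level was 11.59, 9.65 and 9.76 on naive arrays, 10.49, 10.71 and 10.66 on acute Th2 arrays and 10.58, 10.45 and 10.83 on chronic Th2 arrays. The 6 Th2 arrays lay close together, above naive replicates 2 and 3 and below naive replicate 1. It differed by 0.29 (SE 0.44, adjusted p = 0.862) in acute and 0.29 (SE 0.44, adjusted p = 0.697) in chronic Th2 cells. Leaving out naive replicate 1 moved this to 0.91 (SE 0.13, adjusted p = 0.00164) and 0.91 (SE 0.13, adjusted p = 0.00145), both called, and leaving out naive replicate 2 to -0.05 in both, not called.

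**Figure D2:**
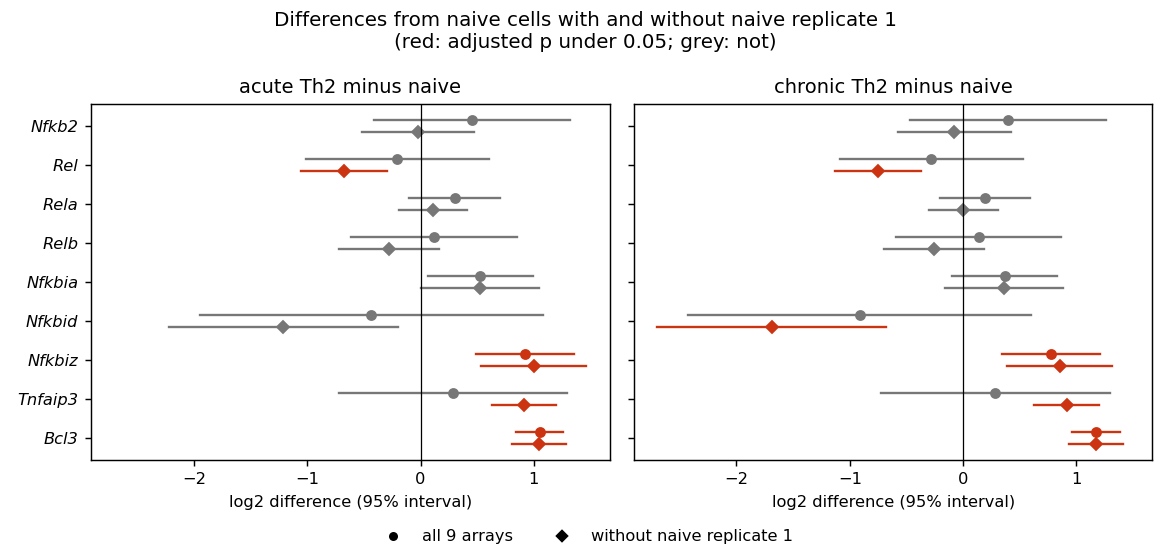
Log2 difference of each member from naive cells with its 95% interval (horizontal axis), from limma on all 9 arrays (circles) and without naive replicate 1 (diamonds), with red for an adjusted p under 0.05. Bcl3 and Nfkbiz are red in all 4 fits. Tnfaip3 (0.29 to 0.91) and Rel (-0.20 to -0.67 in acute Th2 cells) are red only as diamonds, as is Nfkbid in chronic Th2 cells.

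Without naive replicate 1, 4 members were called in acute Th2 cells, with Bcl3, Nfkbiz and Tnfaip3 higher and Rel lower, and 5 in chronic Th2 cells, with Nfkbid as a further gene lower. At this setting 12.2% and 17.2% of all genes were called. Naive replicate 1 was the lowest naive array for 5 of 9 members (Nfkb2, Rel, Rela, Relb and Nfkbid), against 42.8% of all genes and 47.6% of the 9815 genes with a mean above background, and the highest for Nfkbiz and Tnfaip3, against 33.3% and 36.5%. Acute Th2 replicate 1 was the lowest of its group for 9 of 9 members, against 35.7% and 57% of the same sets. Chronic Th2 replicate 3 was the highest of its group for 8 of 9, all but Bcl3, against 31.1% and 43.6%. These are counts over genes that share their arrays, and are given as a description. Leaving out chronic Th2 replicate 3 moved the difference of chronic Th2 from naive cells to 0.26 for Nfkb2, -0.46 for Rel, 0.093 for Rela, -0.028 for Relb, -1.41 for Nfkbid and 0.18 for Tnfaip3, none of them called.

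**Figure D3:**
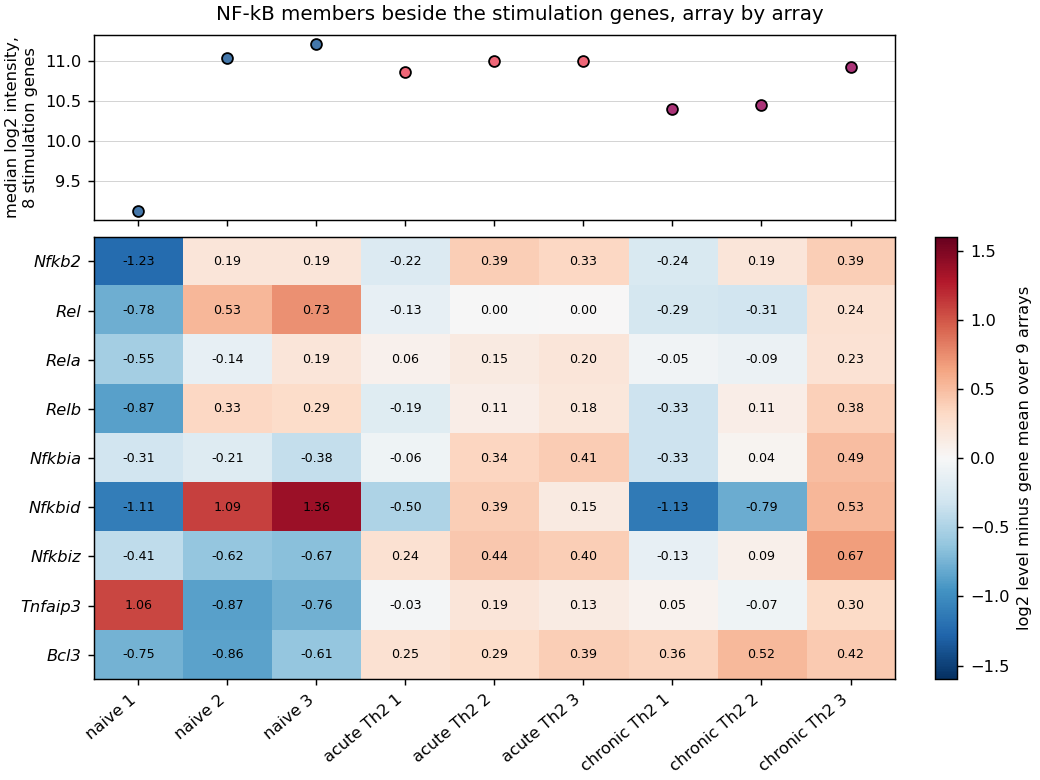
Top, median log2 intensity of the 8 stimulation genes on each array. Bottom, level of each member on each array minus that gene's mean over the 9 arrays (log2, colour scale from blue, low, to red, high, with the value in each cell). The median of the stimulation genes is 9.13 on naive replicate 1, where Nfkb2 is -1.23 and Tnfaip3 is 1.06 from its mean, and 10.40, 10.45 and 10.92 on chronic Th2 replicates 1, 2 and 3, where Nfkbid is at -1.13, -0.79 and 0.53.

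Chronic Th2 cells were compared with acute Th2 cells to see what changes as lung inflammation persists, and this comparison is also the test of whether the differences from naive cells depend on stage. No member passed in limma, where 0.0301% of all genes were called (0.015% higher and 0.015% lower). At an unadjusted p under 0.05 it was 0 of 9 members against 14.9% of all genes. The acute and chronic arrays overlapped for 9 of 9 members, while they did not overlap for 22.7% of all genes. Stage cannot be told apart from day (29 against 104), and tissue not from cell state in the comparisons with naive cells. Bcl3 differed by 0.12 (95% interval -0.09 to 0.33), the narrowest interval of the 9 genes. Nfkbid differed by -0.48 (-1.99 to 1.03), the widest, so that changes of over 2-fold either way are within it. For the others the intervals were -0.92 to 0.81 (Nfkb2), -0.88 to 0.73 (Rel), -0.51 to 0.29 (Rela), -0.71 to 0.75 (Relb), -0.63 to 0.30 (Nfkbia), -0.58 to 0.28 (Nfkbiz) and -1.01 to 1.01 (Tnfaip3). The spread behind these intervals is shared by the 3 groups and takes in the naive arrays. For Tnfaip3 the SD was 1.09 in naive, 0.11 in acute and 0.19 in chronic Th2 cells. Leaving out chronic Th2 replicate 3, Nfkbid differed by -0.98 (adjusted p = 0.447) and Nfkbiz by -0.38 (adjusted p = 0.16), and no member was called.

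**Figure D4:**
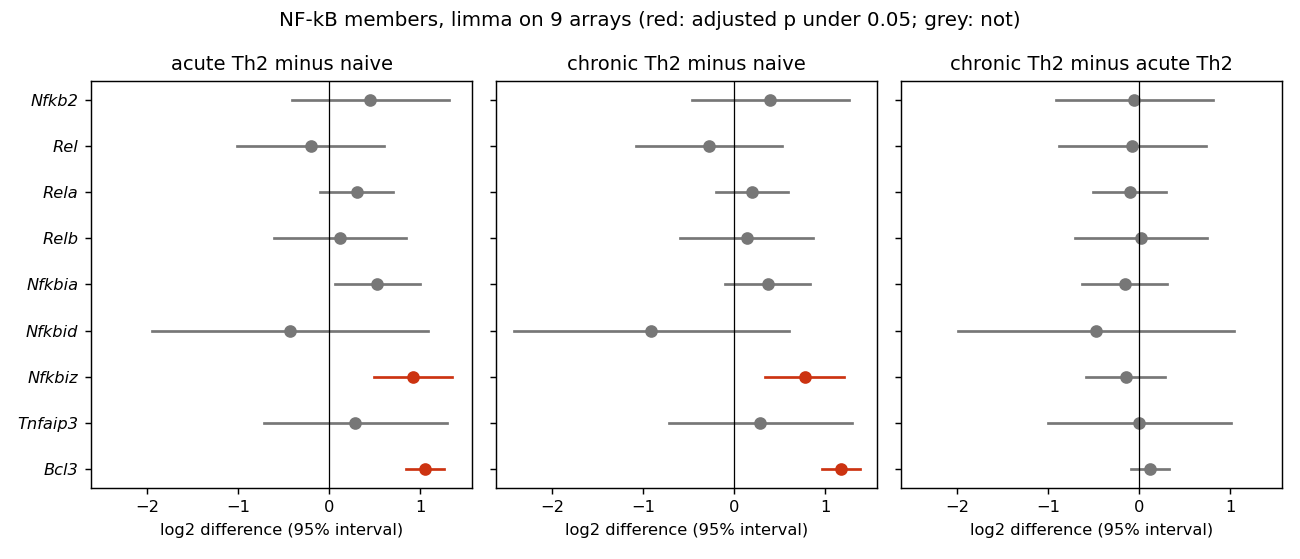
Log2 differences of the 9 members (points) with 95% intervals (lines) in the 3 comparisons, from limma on 9 arrays, with red for an adjusted p under 0.05. Bcl3 and Nfkbiz are red in both comparisons with naive cells, and all members are grey in chronic against acute Th2 cells, where the interval of Bcl3 (-0.09 to 0.33) is the shortest and that of Nfkbid (-1.99 to 1.03) the longest.

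Around these members, 79 further genes of the pathway were measured, of 88 listed, some in more than 1 list. In acute Th2 cells 5 were called higher and 2 lower (median difference 0.02 against -0.03 over all genes), and in chronic Th2 cells 5 higher and 9 lower (0.03 against 0.04). Over all genes, 3.67% were called higher and 2.2% lower in acute and 3.68% and 4.2% in chronic Th2 cells. Between chronic and acute Th2 cells limma called 0 of 79, with 8 at an unadjusted p under 0.05. Of all genes, 16.3% in acute and 25.6% in chronic Th2 cells against naive cells, and 14.9% between the stages, were under that unadjusted p, the background of such counts below. Without naive replicate 1 the counts were 15 higher and 11 lower in acute and 13 higher and 20 lower in chronic Th2 cells, beside 6.05% and 6.11%, and 5.84% and 11.4%, of all genes.

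Of the other IkB family list, 0 of 6 genes passed in either comparison with naive cells, with 0 at an unadjusted p under 0.05 in acute and 1 in chronic Th2 cells. Nfkbib, which encodes IkB beta, differed by 0.44 (SE 0.29, adjusted p = 0.551) in acute Th2 cells, and by 0.079 without naive replicate 1. Nkiras1, which encodes a small GTPase-like protein that binds IkB, differed by -0.74 (SE 0.22, adjusted p = 0.0787) in chronic Th2 cells.

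In the kinase list, Ikbke fell and Tab2 rose in both Th2 groups. Ikbke encodes IKK epsilon, a kinase related to the IkB kinases. It had levels of 10.05, 9.58 and 9.24 on naive, 7.72, 8.41 and 8.26 on acute and 7.60, 7.55 and 7.82 on chronic Th2 arrays. Both Th2 groups lay below all naive arrays and overlapped with each other. It fell by 1.50 (SE 0.23, adjusted p = 0.00601) in acute and by 1.97 (SE 0.23, adjusted p = 0.00132) in chronic Th2 cells, in each of the 9 fits without 1 array. Tab2, an adaptor of the kinase TAK1, rose by 0.76 (adjusted p = 0.00944, lost without acute Th2 3 at 0.0523) and 0.55 (adjusted p = 0.0359). Ikbkb, which encodes the catalytic IKK beta, fell by 0.90 in chronic Th2 cells (SE 0.16, adjusted p = 0.00996), in all 9 fits without 1 array. Map3k14, the NF-kB inducing kinase of the alternative pathway, fell by 0.52 (adjusted p = 0.0446). In all, 1 of 10 rose and 1 fell in acute Th2 cells, beside 3.67% and 2.2% of all genes. In chronic Th2 cells 1 rose and 3 fell, beside 3.68% and 4.2%.

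Between the T cell receptor and the IkB kinase, 0 of 8 genes passed in acute Th2 cells, with 6 at an unadjusted p under 0.05. In chronic Th2 cells 3 fell, beside 4.2% of all genes. Prkcq encodes protein kinase C theta. It had levels of 11.57, 9.93 and 9.74 on naive, 8.90, 9.01 and 8.97 on acute and 8.64, 8.77 and 8.65 on chronic Th2 arrays. Every Th2 array lay below every naive array, and naive replicate 1 was the highest. The difference was -1.45 (adjusted p = 0.0832) in acute and -1.73 (SE 0.40, adjusted p = 0.0354) in chronic Th2 cells, and without naive replicate 1 it was -0.88 (adjusted p = 0.000459) and -1.15 (adjusted p = 9.21e-05), smaller and called in both. Carmil2, a partner of CD28 signalling, fell by 0.80 (adjusted p = 0.0346) and Vav1, an exchange factor next to the receptor, by 0.72 (adjusted p = 0.0368) in chronic Th2 cells. In acute Th2 cells Casp8, a caspase gene, differed by 1.15 (adjusted p = 0.13), and without naive replicate 1 it was called higher (1.67, adjusted p = 8.07e-06). Without naive replicate 1, 2 genes of this list were higher and 2 lower in acute Th2 cells, beside 6.05% and 6.11% of all genes. In chronic Th2 cells 2 were then higher and 4 lower, beside 5.84% and 11.4%.

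Among the TRAF, cIAP and RIP adaptors, 0 of 11 passed in acute Th2 cells, with 3 at an unadjusted p under 0.05. In chronic Th2 cells 1 gene fell, beside 4.2% of all genes. That gene was Rnf31, the catalytic part of the linear ubiquitin ligase, at -0.40 (SE 0.09, adjusted p = 0.0268). Traf1, an adaptor induced by NF-kB, differed by 0.81 (adjusted p = 0.335) and Traf6 by 0.76 (adjusted p = 0.249) in acute Th2 cells, and by 0.39 and 0.34 without naive replicate 1.

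Of the deubiquitinases and other brakes, 2 of 16 rose and 0 fell in each Th2 group. Over all genes 3.67% rose and 2.2% fell in acute and 3.68% rose and 4.2% fell in chronic Th2 cells. Tnip3 encodes a ubiquitin-binding partner of the Tnfaip3 product. Its level was 5.76, 5.47 and 5.66 on naive, 8.55, 7.93 and 7.88 on acute and 8.81, 9.23 and 8.78 on chronic Th2 arrays. Naive cells lay below the background level of 6.53, which gives only an upper bound of the level there. The differences in signal were 2.49 (SE 0.20, adjusted p = 0.000126) and 3.31 (SE 0.20, adjusted p = 2.12e-05). N4bp1, an inhibitor of NF-kB signalling, rose by 1.34 (SE 0.16, adjusted p = 0.00153) in acute and 1.07 (SE 0.16, adjusted p = 0.00505) in chronic Th2 cells. Both genes were called in all 9 fits without 1 array in both comparisons.

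Textbook targets of NF-kB did not move in 1 direction. Of 33 measured, 2 rose and 1 fell in acute Th2 cells, beside 3.67% and 2.2% of all genes. In chronic Th2 cells 2 rose and 2 fell, beside 3.68% and 4.2%. Without naive replicate 1 it was 8 higher and 7 lower in acute Th2 cells, beside 6.05% and 6.11% of all genes. In chronic Th2 cells it was then 7 higher and 8 lower, beside 5.84% and 11.4%. Ltb, which encodes lymphotoxin beta, had levels of 9.14, 9.91 and 9.73 on naive, 7.46, 8.02 and 8.02 on acute and 7.41, 7.58 and 7.76 on chronic Th2 arrays. It fell by 1.76 (SE 0.22, adjusted p = 0.00209) and by 2.01 (SE 0.22, adjusted p = 0.000947). Ier3, an early response gene of survival, went the other way: its levels were 6.67, 6.43 and 6.75 on naive, 8.88, 8.20 and 8.31 on acute and 8.90, 9.31 and 8.74 on chronic Th2 arrays. It rose by 1.85 (SE 0.21, adjusted p = 0.00104) and 2.36 (SE 0.21, adjusted p = 0.000233). The naive values of Ier3 lay around the background level of 6.53, below it on replicate 2, so that the rise is one of signal. Cd83, a surface protein of activated cells, rose by 2.45 (adjusted p = 0.0324) in chronic Th2 cells. Its levels were 6.46, 8.82 and 8.62 on naive arrays, the first below background, and 10.05, 10.35 and 10.84 on chronic Th2 arrays. With 1 array left out its rise ran from 1.69 to 2.87. Plk2, a stress kinase gene, fell by 1.31 (adjusted p = 0.00639) there, to a mean of 5.49, below background. Il6 was called higher in acute Th2 cells (2.39, adjusted p = 0.00825), with both group means (6.22 and 3.83) below background. Tnf, the cytokine gene, had levels of 7.65, 10.71 and 11.01 on naive arrays, and between 6.96 and 8.50 on Th2 arrays. On all 9 arrays Tnf was not called, with means of 9.79 (SD 1.86) in naive, 8.15 in acute and 7.39 in chronic Th2 cells. Without naive replicate 1 it was called lower, at -2.71 (adjusted p = 0.00179) in acute and -3.47 (adjusted p = 0.000403) in chronic Th2 cells. That array was set apart by a stimulation list that holds Tnf, Il2 and Myc, which are also among these textbook targets. The fit without that array is thus no separate test of these genes. The counts of textbook targets and of further pathway genes in that fit cover them.

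**Figure D5:**
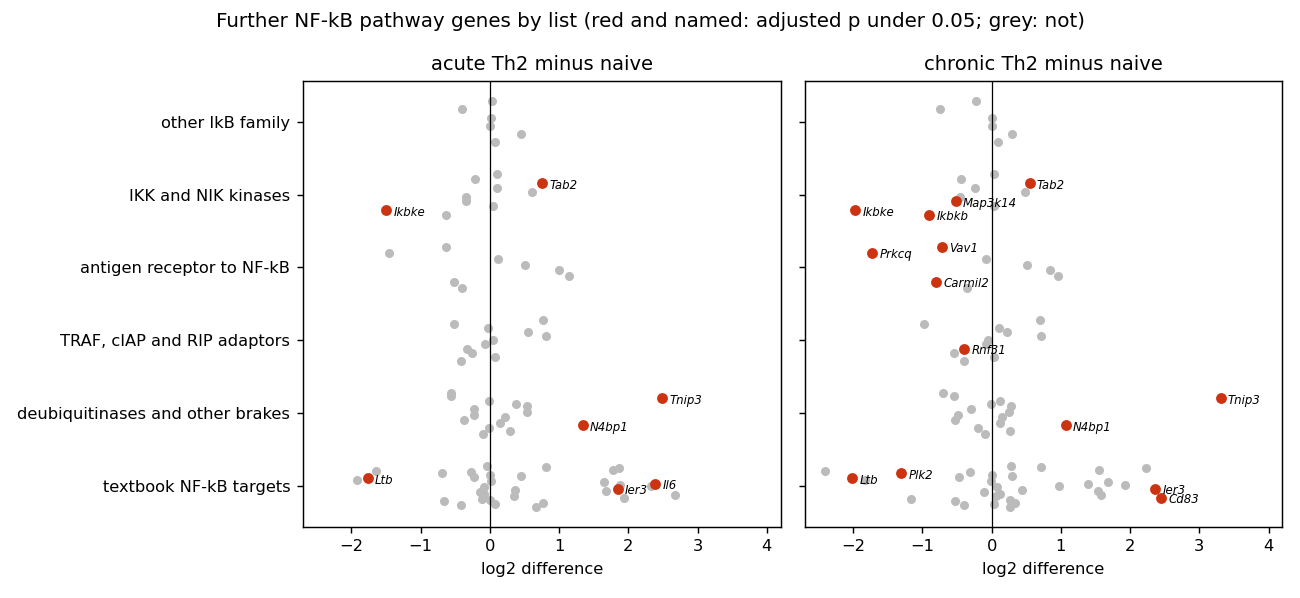
Log2 difference from naive cells (horizontal axis) of each measured gene of 6 further NF-kB lists in acute (left) and chronic (right) Th2 cells, from limma on 9 arrays, with called genes in red with their names. Tnip3 (2.49 and 3.31) lies farthest to the right among called genes, and Ltb (-1.76 and -2.01) and Ikbke (-1.50 and -1.97) farthest to the left.

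Of these further genes, calls that were lost when a single array was left out were all in chronic Th2 cells, apart from that of Tab2 in acute Th2 cells. Map3k14 lost its call without any one of naive 3, the 3 acute Th2 arrays, chronic Th2 1 or chronic Th2 2 (adjusted p up to 0.154), and Vav1 without the same 6 (up to 0.148). Tab2 lost it without any one of naive 3, acute Th2 2, acute Th2 3 or the 3 chronic Th2 arrays (up to 0.103). Prkcq (up to 0.13), Carmil2 (up to 0.127) and Cd83 (up to 0.0979) lost it without any one of the 6 Th2 arrays. Rnf31 lost it without naive 2, naive 3, acute Th2 3 or chronic Th2 1 (up to 0.0958).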

How the data were processed

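For each array the authors deposited log2 intensities of all probe sets, and the submitters' processing notes name RMA and limma. For versions, genome build, probe annotation and filters, nothing is stated in the labels. Of 34760 probe sets, 21640 name 1 gene, and each gene was represented by the brightest of its probe sets, by mean level. Values were used without further normalisation or filter, and their number of arrays limits the precision. A limma fit (version 3.58.1, R 4.3.3; lmFit, contrasts.fit and eBayes) of the 9 arrays by group gave two-sided tests with a spread shared by the 3 groups. The Benjamini-Hochberg adjustment covered 19937 genes, and SE, 95% intervals and SD (n = 3) are on the log2 scale. With 3 arrays against 3 an exact permutation test cannot go below 0.1, so none is given. The test was checked on simulated data for acute Th2 against naive cells. It recovered 76% of effects of 1 log2 unit and 88% of effects of 2, with 3 false calls. The simulation gave each gene the same spread in all groups and had no unusual array. It therefore does not cover a case like naive replicate 1. The members, lists and tests were chosen with earlier results of these data known. Named were all members, and per list and comparison up to 4 called genes with the largest difference, or up to 2 as values where none was called. Tnf and the order of arrays within a group were chosen after their values were seen. Same-numbered arrays were not paired in the main fit. The correlations of their deviations from the group means ran from -0.085 to 0.572. Between acute and chronic Th2 arrays they were 0.572, -0.012 and 0.403 for replicates 1, 2 and 3. Whether arrays of the same number share a batch was not tested, and a fit with a replicate block is among the alternatives. Alternatives were each array left out, other fits, centring, probe set choice, a filter on dim genes and array weights.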

Additional observations from a re-analysis of the deposited data

How the results depend on the processing

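Bcl3 was called higher than naive cells under every alternative run, and no alternative called a member between chronic and acute Th2 cells. The count of members called ranged from 1 to 4 in acute and from 1 to 5 in chronic Th2 cells (2 in each on all arrays), and from 0 to 0 between them, when 1 array was left out. For all genes these ranges were 653 to 2424 (1171 on all arrays), 734 to 3438 (1571) and 0 to 12 (6), and for further pathway genes 6 to 26 (7), 7 to 33 (14) and 0 to 0 (0). With array weights, 5, 5 and 0 members, 4019, 4675 and 6721 genes and 36, 34 and 30 pathway genes were called. Without both naive 1 and chronic Th2 3, an alternative chosen after seeing the data, it was 5, 5 and 0 members, 2624, 4665 and 1087 genes and 29, 38 and 7 pathway genes. With only the 6 arrays of the groups compared, 1 member was called in chronic Th2 cells, 762, 686 and 2 genes in all, and 7 pathway genes in chronic Th2 cells. The replicate block called 1 member in chronic Th2 cells, Bcl3 (Nfkbiz was lost, at 0.77 and adjusted p = 0.0535), 11 pathway genes in acute Th2 cells and 0 genes between stages. Centring on the median (Nfkbiz lost, at 0.71 and adjusted p = 0.074) and the trended, robust variance (Nfkbiz lost, adjusted p = 0.0615) also left 1 member in chronic Th2 cells, and the latter 3 genes between stages. The cause of these shifts was not tested.

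Differences that changed sign were all uncalled on all arrays. Without both arrays, Nfkb2 was at -0.021 and -0.22 and Relb at -0.28 and -0.42 in acute and chronic Th2 cells, Rela at -0.10 in chronic Th2 cells, and Relb at -0.15 between stages. With weights, Relb was at -0.078, -0.17 and -0.088 and Rela at -0.062 in chronic Th2 cells, and with centring Relb was at -0.046 between stages. With 1 array left out, acute and chronic differences ran from -0.021 to 0.69 and -0.078 to 0.63 for Nfkb2, -0.67 to 0.082 and -0.75 to 0.006 for Rel, -0.28 to 0.32 and -0.26 to 0.34 for Relb, and -0.053 to 0.91 and -0.0545 to 0.91 for Tnfaip3, and the acute one of Nfkbid from -1.21 to 0.024. Between stages they ran from -0.25 to 0.12 for Nfkb2, -0.26 to 0.021 for Rel, -0.15 to 0.21 for Relb, -0.37 to 0.036 for Nfkbia, -0.38 to 0.0225 for Nfkbiz and -0.10 to 0.081 for Tnfaip3. With 3 arrays a group, intervals of about 1 log2 unit either side for Nfkb2, Rel and Tnfaip3 limit what could be called. These widths rest on a spread shared by the 3 groups, and the naive arrays varied most. The SD in naive, acute and chronic Th2 cells was 0.82, 0.34 and 0.33 for Nfkb2. It was 0.82, 0.07 and 0.31 for Rel and 1.09, 0.11 and 0.19 for Tnfaip3.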
